A study of Zea mays with 2 samples.

Results

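Deeply nested level 0 domains are chromatin domains of the maize leaf that hold at least 3 further layers of domains inside them. They were chosen in each replicate by the level that the authors' domain caller gave, as every level 0 domain (the outermost layer) that contained at least 1 domain of level 3 or higher. The rule found 370 of 7131 level 0 domains in replicate 1 and 417 of 7257 in replicate 2, or 787 of 14388 in all (mean 394 ± 33.2, SD, n = 2 replicates). The data were Hi-C libraries of leaf tissue of the inbred line B73, collected from greenhouse plants at the v04 stage and ground before fixation. There were 2 biological replicates of this single condition, each a pool of plants, and no treatment or mutant. Domains and loops were called in each replicate separately on chromosomes 1 to 10 of B73 AGPv4, and all coordinates below are 1-based on that build. With 1 condition and 2 replicates no test between groups was possible, so values of both replicates are set side by side. Shares carry 95% Wilson intervals, which treat the domains, divisions, boundaries or loops counted as independent and cover counting error only.

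In Hi-C, pieces of DNA that touch in the nucleus are ligated to each other and read by sequencing. A domain is a stretch of chromosome whose parts contact each other more often than they contact the flanking DNA, and a loop is a pair of distant points, its anchors, that contact each other more often than their surroundings do. Plants have no known counterpart of CTCF, the protein that marks many domain boundaries in animals, and in large plant genomes domains are largely described as compartment domains that separate transcribed from repeat-rich chromatin. HiTAD, the program used here, divides a domain into smaller domains and repeats the step on the parts, so that each added level is a finer partition of the level above. Level 1 is thus a part of level 0, level 2 a part of level 1, and so on. Genes and base composition of these regions were not analysed here.

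The domain from 35970001 to 36680000 on chromosome 1 (710 kb) shows the structure in full, and was called with the same start and end in both replicates. In each replicate it was cut at 36510000 into a level 1 domain of 540 kb and an undivided one of 170 kb. The larger part was cut at 36240000 into level 2 domains of 270 kb each. In both replicates the right-hand level 2 domain was cut at 36370000 into level 3 domains of 130 and 140 kb. The left-hand one was cut differently, at 36040000 in replicate 1 (70 and 200 kb) and at 36150000 in replicate 2 (180 and 90 kb). Replicate 1 then went 1 level further and divided the 200 kb domain at 36140000 into level 4 domains of 100 kb each. The replicates therefore had 10 and 8 sub-domains here, of which 6 were identical in position and level. Both replicates nevertheless had a loop across the stretch where they differed. A loop joined 36045001-36050000 and 36140001-36145000 in replicate 1, with 28 contacts, 10.3 times the contacts expected from the donut-shaped neighbourhood. In replicate 2 a loop joined 36040001-36050000 and 36140001-36150000, with 177 contacts, 16.4 times the expected number. The left anchor of this loop of replicate 2 began at 36040000, where replicate 1 had a level 3 boundary and replicate 2 had none. Its right anchor began at the level 4 boundary of replicate 1 and ended at the level 3 boundary of replicate 2.

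**Figure D1:**
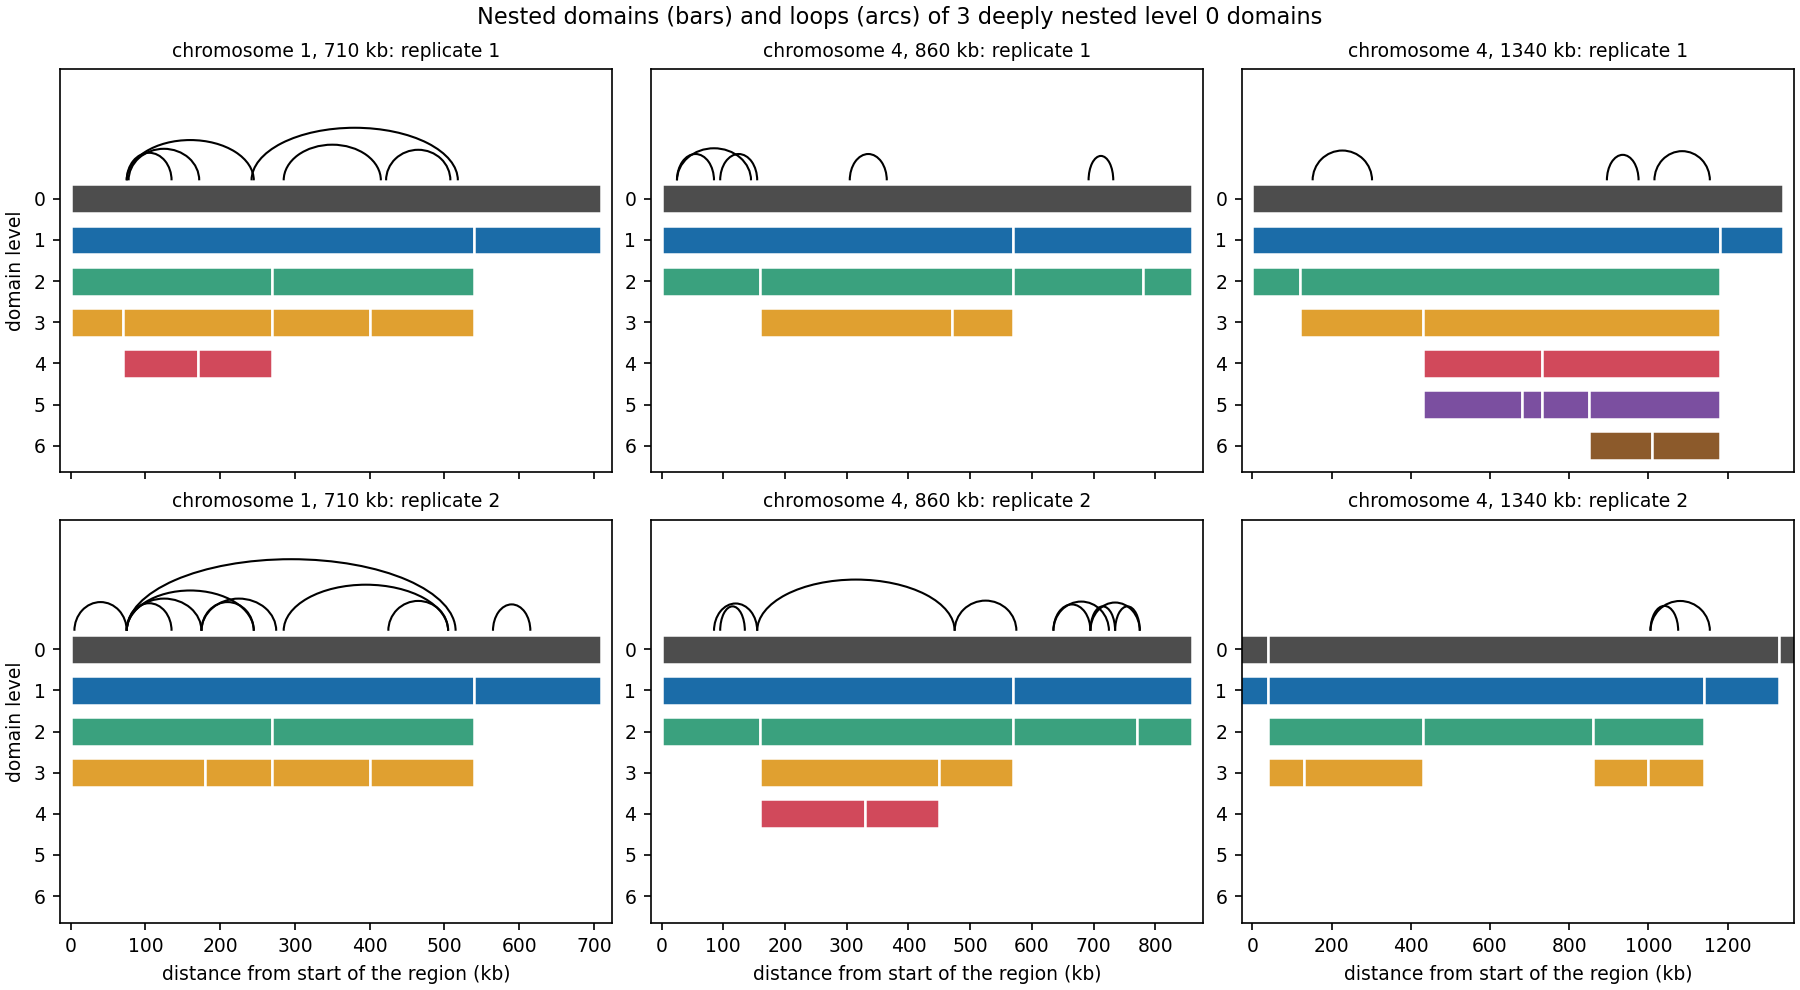
Domains (bars, 1 row per level, level 0 at the top) and loops with both anchors inside (arcs between anchor midpoints) in 3 deeply nested regions, with distance from the start of the region in kb on the horizontal axis; replicate 1 is above and replicate 2 below. The first cuts fall at the same place in both replicates in the left and middle regions, and the deeper layers differ more. The region on the right reached level 6 in the upper panel and level 3 in the lower one.

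Deeply nested domains were large. Their median size was 720 kb in replicate 1 (quartiles 560 and 980 kb, range 260 to 3120 kb) and 700 kb in replicate 2 (quartiles 550 and 910 kb, range 270 to 2600 kb), against a median of 210 kb for all level 0 domains of each replicate. Because of this size, 5.19% of level 0 domains in replicate 1 (interval 4.7 to 5.73%) and 5.75% in replicate 2 (interval 5.23 to 6.31%) covered 14.4% and 15.7% of the level 0 bases, respectively. They held 25.5% of all sub-domains in replicate 1 (2766 of 10847) and 27.3% in replicate 2 (3131 of 11482). Most stopped just inside the rule. In replicate 1, 296 domains ended at level 3, 64 at level 4, 8 at level 5 and 2 at level 6, and in replicate 2, 339 ended at level 3, 66 at level 4 and 12 at level 5. The median of those that ended at level 3 was 685 and 660 kb, respectively, and that of the level 0 domains just outside the rule, which ended at level 2, was 490 and 480 kb. Depth went with size, and no domain of any level was under 50 kb. No level 0 domain of up to 200 kb was deeply nested (0 of 3410 and 0 of 3539). Parts of at least 50 kb left almost no room for 3 layers there, so this count was nearly fixed in advance. The share rose to 12.3% and 15.1% at 400 to 600 kb, 27.6% and 36% at 600 to 800 kb, 44.9% and 43.1% at 800 to 1200 kb, and 53.8% and 56.2% above 1200 kb, in replicates 1 and 2, respectively. Of the 80 level 0 domains above 1200 kb in each replicate, 43 and 45 were deeply nested, and the others had fewer than 3 layers inside. The comparisons below are given within size classes where size could matter.

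The inner structure was mostly a chain of cuts into pairs. A deeply nested domain held a median of 7 sub-domains in both replicates (quartiles 6 and 8), with a minimum of 5 and a maximum of 17 and 18, respectively. Between 6 and 8 sub-domains were found in 77.6% and 77.5% of them. Of all divisions inside these domains, 90.9% gave exactly 2 parts in replicate 1 (1186 of 1305, interval 89.2 to 92.3%) and 89.3% in replicate 2 (1314 of 1472, interval 87.6 to 90.7%). The share was lowest for the first cut of the level 0 domain, 80.8% and 77%, and higher for the division of level 1 domains, 92.8% and 91.8%, and of level 2 domains, 96.1% and 96.4%. The first cut of the other divided level 0 domains gave 2 parts in 80.8% and 82.4% of cases. The parts filled the divided domain without gaps in 99.1% of divisions in each replicate.

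Within this chain 1 branch carried the depth. A single level 1 domain reached level 3 in 98.4% and 98.6% of the deeply nested domains. Where the first cut gave 2 parts and a single part went deep, it was the larger part in 97.7% (291 of 298, interval 95.2 to 98.9%) and 95.3% (303 of 318, interval 92.4 to 97.1%). The rule itself asks for room in that part. In domains that ended at level 2, where the first cut gave 2 parts and a single part was divided, it was the larger part in 89.8% and 89.4%. In deeply nested domains the part that went deep lay on the side of the lower coordinate in 52% (interval 46.4 to 57.6%) and 48.4% (interval 43 to 53.9%). Neither side was thus preferred beyond counting error. The first cut was uneven and later cuts were less so. The rule bears on this order too, since an early cut must leave a part with room for further layers. Cuts of the other level 0 domains were not measured in this way. The larger of 2 parts took a median of 79.1% of the level 0 domain in replicate 1 and 77.6% in replicate 2, then 69.6% and 67.4% of a divided level 1 domain, 62.5% and 61.5% of a level 2 domain, and 61.9% and 60.9% of a level 3 domain. The median undivided level 1 domain was 130 kb in both replicates, close to undivided level 2 domains (130 kb in both) and level 3 domains (140 and 130 kb), whereas the level 1 domains that were divided further had a median of 480 and 450 kb. The pieces at which division ended were thus of similar size at each of these levels.

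**Figure D2:**
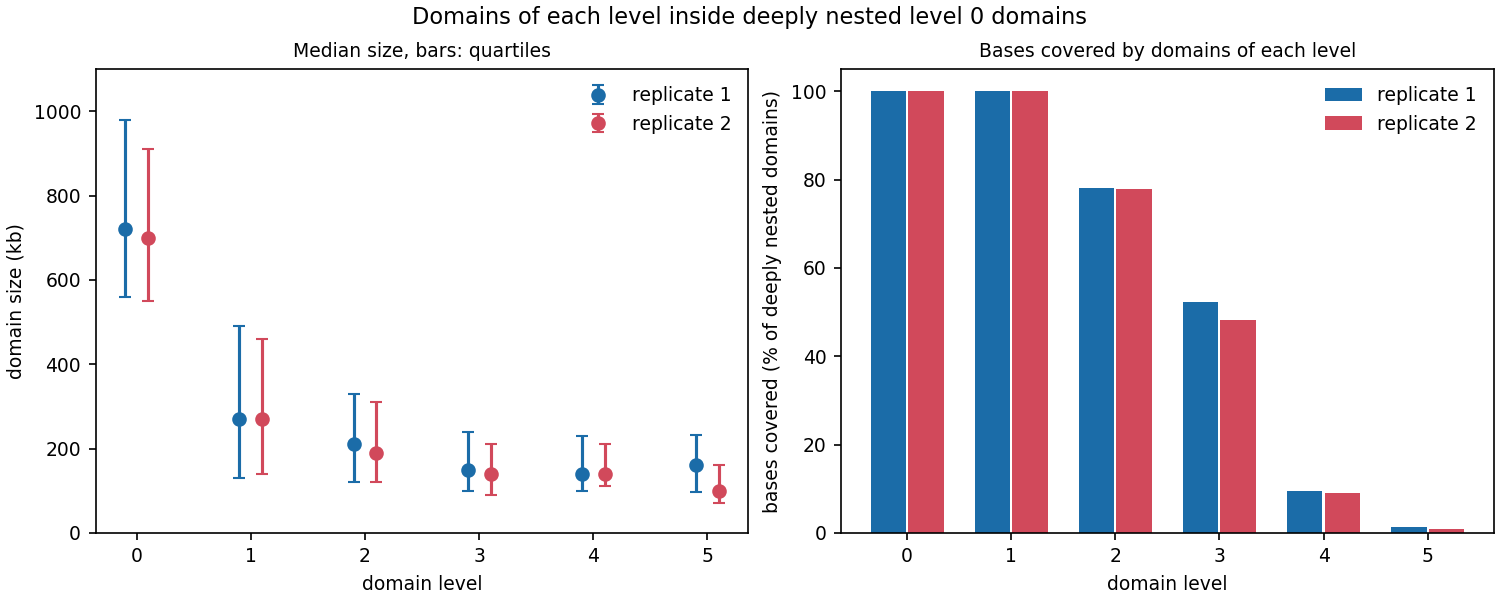
Left, median size in kb of the domains of each level inside deeply nested level 0 domains, with bars from the lower to the upper quartile. Right, percent of the bases of deeply nested domains that lie in domains of each level. Blue is replicate 1 and red is replicate 2, and level 6 (4 domains of replicate 1) is not drawn. Median sizes fall from 720 and 700 kb at level 0 to 150 and 140 kb at level 3, and coverage falls from 100% at levels 0 and 1 to 9.44% and 9.09% at level 4.

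The layers inside therefore covered less and less of the domain. Level 2 domains covered 78.1% of the bases in replicate 1 and 77.9% in replicate 2, level 3 domains 52.2% and 48.2%, level 4 domains 9.44% and 9.09%, and level 5 domains 1.36% and 0.884%. Median sizes were 270 kb at level 1 in both replicates, 210 and 190 kb at level 2, and 150 and 140 kb at level 3. At level 4 the median was 140 kb in both replicates, so that from level 3 to level 4 the median fell by at most 1 step of the 10-kb grid on which all boundaries lie. Exactly 2 level 3 domains were present in 84.6% and 88.5% of the deeply nested domains.

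Most sub-domains reused 1 boundary of the domain that held them. A boundary was shared with the parent, the domain 1 level up, by 94% of sub-domains in replicate 1 (2599 of 2766, interval 93 to 94.8%) and 93.6% in replicate 2 (2931 of 3131, interval 92.7 to 94.4%), and none shared both. This follows closely from cuts into pairs that leave no gap, and left and right boundaries were reused about equally often (1301 and 1298 in replicate 1, 1467 and 1464 in replicate 2). By level, 86.7% and 85.3% of level 1 domains shared a boundary with the parent, then 95.6% and 96.1% at level 2 and 98.3% and 98.5% at level 3. Level 1 and level 2 domains inside the other level 0 domains gave 87.6% and 97% in replicate 1 and 89.1% and 97.3% in replicate 2. The outer boundary of the level 0 domain was reused far less by the deeper layers. It bounded 42.3% and 41.9% of level 2 domains, 15.6% of level 3 domains in each replicate, and 5.73% and 4.24% of level 4 domains. Part of this fall was fixed in advance. Below level 0, a cut into a pair leaves the outer boundary to at most 1 part, and a part without it cannot pass it on. Nesting to level 3 or higher ran up to the edge of the level 0 domain in 35.1% (interval 30.4 to 40.1%) and 34.1% (interval 29.7 to 38.7%) of cases, and in the others these layers lay in the interior. A median of 4 distinct positions inside the domain was enough to draw the whole hierarchy, from 3 to 10 positions in replicate 1 and 3 to 11 in replicate 2.

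Loops, which were called by another program (HICCUPS) and were not used to choose the domains, were present in most of them. At least 1 loop lay with both anchors inside in 90% of the deeply nested domains of replicate 1 (333 of 370, interval 86.5 to 92.7%), beside 62.0% of all level 0 domains. In replicate 2 it was 94.5% (394 of 417, interval 91.9 to 96.3%), beside 68.4% of all level 0 domains. The median was 4 loops in a domain in replicate 1 (quartiles 2 and 6, highest 13) and 6 in replicate 2 (quartiles 3 and 9, highest 25). The domains just outside the rule, those that ended at level 2, had a median of 3 and 4 loops, and 92.3% and 94.8% of them held a loop. Larger domains have room for more loops. Per unit of length deeply nested domains were close to all level 0 domains, with 5.12 loops per Mb against 5.16 in replicate 1 and 8.03 against 7.79 in replicate 2. The mean of deeply nested domains was 6.57 ± 2.05 (SD, n = 2). They were below the other divided domains, with 5.9 and 9.06 in those that ended at level 1 and 6.26 and 9.3 at level 2. Undivided domains had 3.81 and 5.45 loops per Mb. The loop lists differ in resolution, since replicate 1 holds anchors of 5, 10 and 25 kb and replicate 2 only anchors of 10 kb. With 10-kb anchors alone, which make up 40.8% of the loops of replicate 1, the deeply nested domains of replicate 1 had 2.23 loops per Mb and all its level 0 domains 2.2, and 73.8% of the former held a loop against 37.3% of the latter.

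Among domains of like size, loop density went up with nesting depth from 400 to 800 kb and not above. Each density pools the loops of a class and has no error of its own. At 600 to 800 kb in replicate 1 there were 0.948 loops per Mb in undivided domains (17 domains), 4.28 in those that ended at level 1, 5.69 in those that ended at level 2 and 6.73 in deeply nested ones. In replicate 2 the same order read 1.96 (13 domains), 6.01, 8.18 and 9.8 loops per Mb. At 400 to 600 kb the values were 2.2, 4.93, 6.86 and 7.51 in replicate 1 and 3.12, 7.59, 10.1 and 12.1 in replicate 2. At 200 to 400 kb they were 3.61, 6.33, 8.82 and 11.1 (20 deeply nested domains) and 5.24, 9.94, 13.3 and 17.2 (21 deeply nested domains), respectively. The step from level 2 to deeper nesting was thus smaller than the step from undivided to divided domains. At 800 to 1200 kb deeply nested domains were below those that ended at level 2, with 4.25 against 4.69 loops per Mb in replicate 1 and 6.43 against 7.6 in replicate 2. Above 1200 kb they were below them again, with 2.42 against 3.47 and 3.47 against 4.2. With 10-kb anchors alone replicate 1 kept this turn, with 3.02 loops per Mb in deeply nested domains against 2.52 in those that ended at level 2 at 600 to 800 kb, and 0.984 against 1.56 above 1200 kb. Loops were sparser in the middle of the chromosomes, so the order is also given by region. In the middle 60% of the chromosomes, deeply nested domains and those that ended at level 2 had 5.79 and 5.23 loops per Mb in replicate 1 and 9.06 and 8.29 in replicate 2 at 400 to 800 kb, and 3.02 and 3.41 in replicate 1 and 4.24 and 4.84 in replicate 2 above 800 kb. In the first and last 20%, the values were 8.83 and 8.31, and 13.2 and 11.2, at 400 to 800 kb, and 5.58 and 6.21, and 8.65 and 9.91, above 800 kb.

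**Figure D3:**
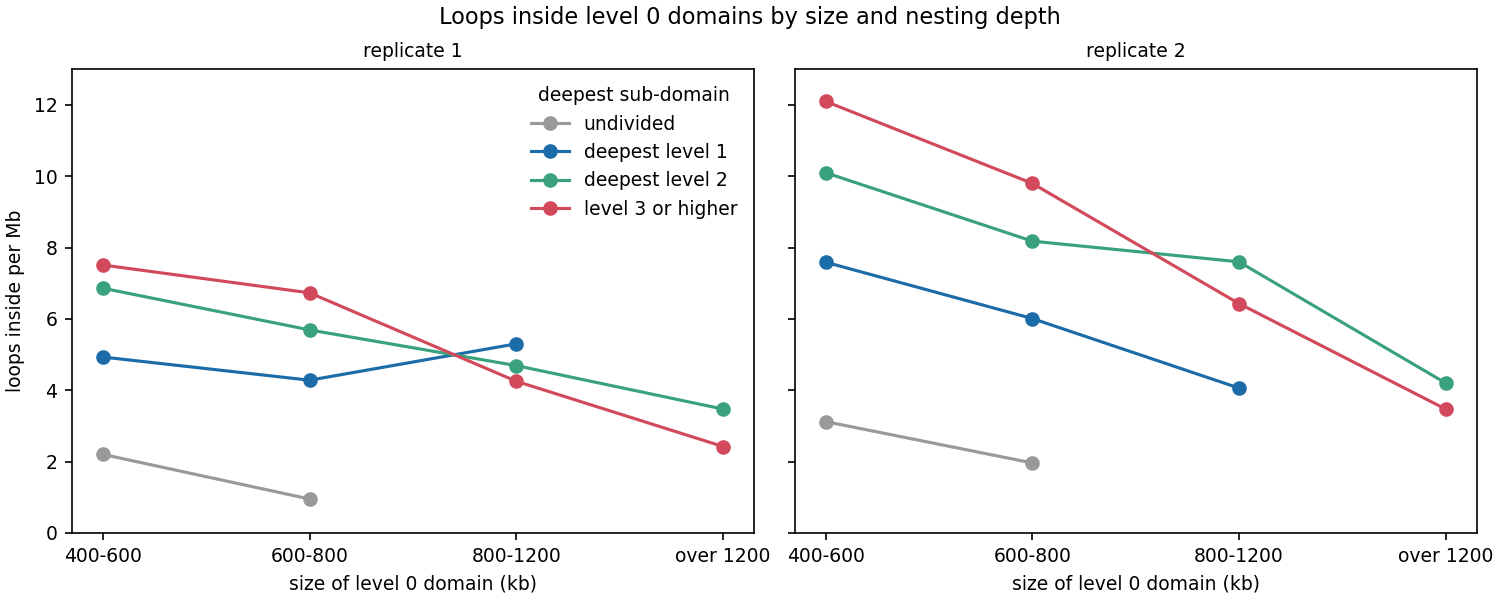
Loops with both anchors inside per Mb of level 0 domain (vertical axis), by size of the level 0 domain in kb (horizontal axis) and by the deepest sub-domain it held (colours), in replicate 1 (left) and replicate 2 (right). Each point pools the loops and bases of a class, and classes with fewer than 10 domains are not drawn. Deeply nested domains (red) lie above the other classes at 400 to 800 kb, and below those that ended at level 2 (green) above 800 kb.

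The loops inside were spread over the layers. The smallest domain that held both anchors was at level 0 for 23.5% of the loops in replicate 1 and 24.4% in replicate 2. These loops lay in no single level 1 domain and had a median length of 225 and 200 kb. A level 1 domain was the smallest holder for 33.4% and 33% of loops (median length 112 and 120 kb), a level 2 domain for 23.1% and 24.7% (100 and 90 kb), and a level 3 domain for 17.5% and 15.5% (70 kb in both). At 600 to 800 kb, loops across level 1 boundaries were less frequent in deeply nested domains (18.2%, interval 14.9 to 22.1%, and 22.3%, interval 19.6 to 25.2%) than in those that ended at level 2 (30.5%, interval 27 to 34.1%, and 32%, interval 29 to 35.2%). The gap was smaller, with overlapping intervals, at 400 to 600 kb in replicate 1 (26.6% against 31.1%) and at 800 to 1200 kb in replicate 2 (24% against 28.8%). The intervals were apart at 400 to 600 kb in replicate 2 (25.5% against 33.6%) and at 800 to 1200 kb in replicate 1 (24% against 36%). These intervals treat loops as independent, although several loops can lie in 1 domain. The rule bears on the place of the first cut, and so can bear on this share. How far it did so was not tested. The loops inside deeply nested domains had a median of 21 contacts in replicate 1 and 31 in replicate 2, against 20 and 37 in other level 0 domains. Their contacts were a median of 4.69 and 4.29 times the expected number, against 5.16 and 4.13 times in other level 0 domains. The direction of both differences changed between the replicates.

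A loop from boundary to boundary of the whole domain was rare. With 2 kb allowed on either side, a loop joined both boundaries of 5 of 370 deeply nested level 0 domains in replicate 1 (1.35%, interval 0.579 to 3.12%) and 17 of 417 in replicate 2 (4.08%, interval 2.56 to 6.43%). The other level 0 domains, which were smaller, gave 8.8% and 15.7%. Inside the deeply nested domains the share was 5.52% and 11.9% at level 1, 6.93% and 12.6% at level 2, 5.99% and 11.9% at level 3, and 1.62% and 10% at levels 4 and higher. Domains of level 3 or higher of 100 to 150 kb had such a loop in 5.65% (interval 3.39 to 9.25%) and 11.6% (interval 8.51 to 15.7%), and undivided level 0 domains of the same size in 11.3% (interval 9.62 to 13.2%) and 19.4% (interval 17.3 to 21.7%). This was the only size class of those under 300 kb in which the intervals were apart in both replicates. At 200 to 300 kb the values were 6.81% against 8.6% in replicate 1 and 7.1% against 11.5% in replicate 2. Level 2 domains of 100 to 150 kb gave 8.75% and 10.2% inside deeply nested domains, and 8.76% and 15.4% in other level 0 domains. Their intervals overlapped those of level 3 or higher in both replicates.

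Boundaries of the deeper layers coincided less often with loop anchors. Boundaries were classed by the outermost level that used them, and counted as at an anchor when an anchor reached into the 2 kb on either side. The share at an anchor was 49.5% for level 0 boundaries in replicate 1, then 46.6% at level 1, 39.9% at level 2, 34.8% at level 3 (interval 30.5 to 39.4%) and 20.4% at levels 4 and higher (interval 13.5 to 29.7%). In replicate 2 it was 62.7%, 56.8%, 44.6%, 34.5% (interval 30.3 to 38.9%) and 27.8% (interval 19.9 to 37.5%). Of all positions of the 10-kb grid inside these domains, 16.7% and 18.4% were at an anchor, below the intervals of the boundaries first used at level 3. At levels 4 and higher the interval of replicate 1 included its grid share, and that of replicate 2 lay above its grid share. The same fall with level was found in the other level 0 domains, from 54.4% at level 0 to 39.5% at level 2 in replicate 1 and from 63.3% to 46.2% in replicate 2. With 10-kb anchors alone the shares of replicate 1 were lower (26.5%, 28.4%, 21.5%, 19.2% and 10.8%, beside 8.04% of the grid), and the value at level 1 was then above that at level 0, within their intervals.

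Along the chromosomes, deeply nested domains were less concentrated at the ends than level 0 domains at large. The first and last 20% of the chromosomes held 34.6% of the deeply nested domains of replicate 1 (128 of 370, interval 29.9 to 39.6%) and 36.9% of those of replicate 2 (154 of 417, interval 32.4 to 41.7%), beside 47.2% of all level 0 domains in each replicate and 39.8% of the bases. Per 100 Mb this was 15.4 and 18.5 deeply nested domains in the outer part and 19.3 and 21 in the middle. In steps of 10% of the chromosome length, the highest number was between 30 and 40% in both replicates, with 23.7 and 24.8 per 100 Mb. The lowest was in the last 10% in replicate 1 (13) and between 70 and 80% in replicate 2 (12.9). Level 0 domains of the middle were also larger, and within size classes the direction was not the same throughout. At 600 to 800 kb, 34.8% of level 0 domains were deeply nested at the ends and 24% in the middle in replicate 1 (intervals 26.7 to 43.9% and 18.9 to 29.9%), and 49.1% and 30.1% in replicate 2 (intervals 39.8 to 58.4% and 24.7 to 36.2%). Above 1200 kb, where the ends had 18 level 0 domains in each replicate, the order was turned, with 44.4% and 56.5% in replicate 1 and 22.2% and 66.1% in replicate 2 at the ends and in the middle, respectively.

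The same structure carried different numbers of loops at the ends and in the middle. At the ends, where the median deeply nested domain was 640 kb in both replicates, there were 7.62 and 11.8 loops per Mb of deeply nested domain, respectively. In the middle, where the median was 805 and 740 kb, there were 4.05 and 6.3. Between 30 and 50% of the chromosome length the density was 2.42 and 4.09 loops per Mb. All level 0 domains followed the same course, with 6.66 and 10 loops per Mb at the ends and 4.17 and 6.31 in the middle. At 400 to 600 kb the deeply nested domains of the ends had 9.64 and 16.6 loops per Mb, and those of the middle 5.94 and 9.21.

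**Figure D4:**
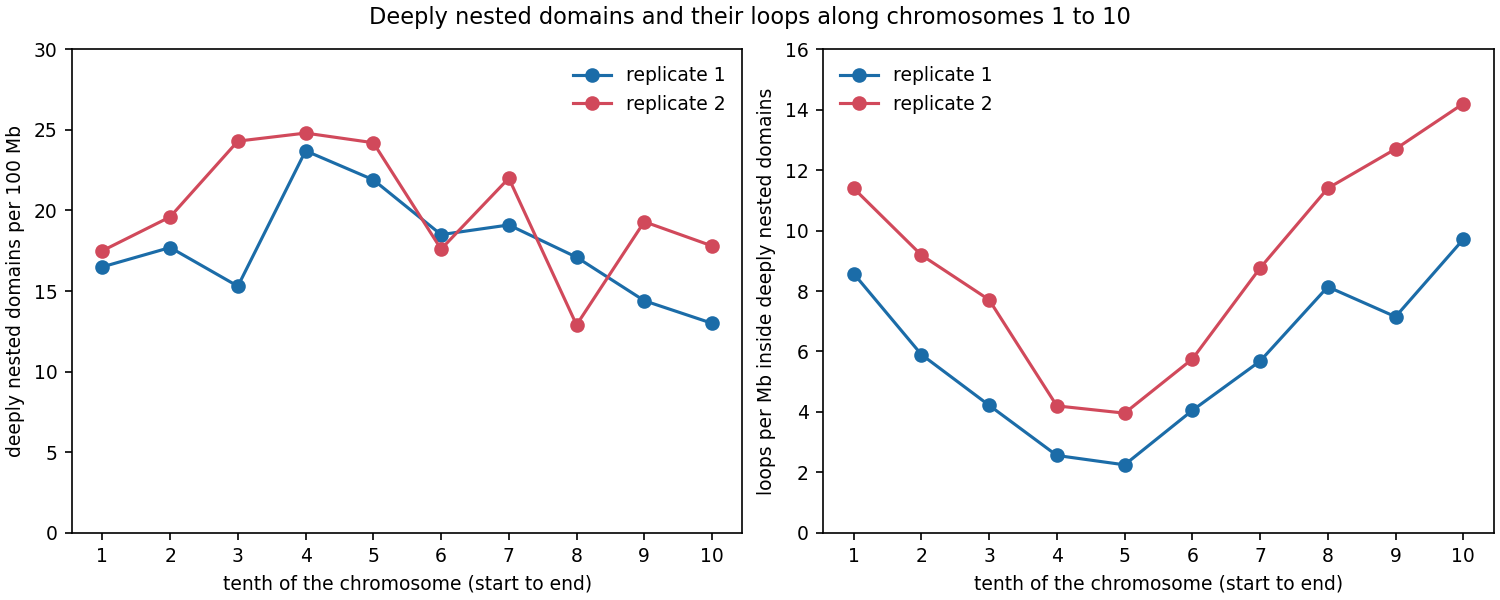
Left, number of deeply nested level 0 domains per 100 Mb in steps of 10% of the chromosome length, numbered from the start (1) to the end (10) and summed over chromosomes 1 to 10. Right, loops with both anchors inside per Mb of deeply nested domain in the same steps. Blue is replicate 1 and red is replicate 2. The number of domains is highest in step 4 (23.7 and 24.8 per 100 Mb), where loop density is 2.56 and 4.2 per Mb, against 9.71 and 14.2 in step 10.

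Between chromosomes, chromosome 3 had the most deeply nested domains per 100 Mb in replicate 1 (21.4, from 50 domains), just above chromosome 6 (21.1), and chromosome 9 the fewest (12.6, from 20 domains). In replicate 2 chromosome 6 had the most (23.5, from 40 domains), and chromosome 3 was the lowest together with chromosome 1 (18.4 each, from 43 and 56 domains). A neighbouring level 0 domain was deeply nested for 9.46% of the deeply nested domains of replicate 1 (interval 6.88 to 12.9%) and 10.1% in replicate 2 (interval 7.54 to 13.3%), beside 9.97% and 11.1% of all level 0 domains, which the intervals include.

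Deep nesting recurred at the same place in the other replicate for a minority of the domains. Each level 0 domain was set against its partner, the level 0 domain of the other replicate that shared most bases with it. The partner was deeply nested for 38.1% of the deeply nested domains of replicate 1 (141 of 370, interval 33.3 to 43.2%), beside 10% of all its level 0 domains. For those of replicate 2 it was 33.6% (140 of 417, interval 29.2 to 38.2%), beside 9.07%. Both directions compare the same pair of replicates and are not independent, so their mean of 35.8% is given without a spread. The partner ended at level 2 for a further 34.9% and 37.6%, and was undivided for 8.92% and 14.4%. Those that reached level 4 or more had a deeply nested partner more often, in 55.4% (interval 44.1 to 66.2%) and 53.8% (interval 42.9 to 64.5%), than those that ended at level 3, in 33.8% (interval 28.6 to 39.3%) and 28.9% (interval 24.3 to 33.9%). They were also larger, and at 600 to 800 kb the intervals overlapped (42.9% and 39.2% in replicate 1, 47.6% and 29.8% in replicate 2). In bases, 118 Mb were deeply nested in both replicates, which was 39.2% of the deeply nested bases of replicate 1 and 35.8% of those of replicate 2.

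Part of this went with size. Domains that ended at level 2 had a deeply nested partner in 17.2% of cases in replicate 1 and 13.9% in replicate 2, and the gap to deeply nested domains varied with size. At 400 to 600 kb it was 22.5% (interval 15.5 to 31.6%) for deeply nested domains and 19.3% (interval 15.4 to 23.9%) for those that ended at level 2 in replicate 1, with intervals that overlap. In replicate 2 it was 19.5% (interval 13.5 to 27.4%) and 10.8% (interval 7.97 to 14.5%). At 600 to 800 kb the values were 40% (interval 30.7 to 50.1%) and 20.6% (interval 15.1 to 27.4%) in replicate 1, and 32.8% (interval 25.2 to 41.4%) and 17.9% (interval 12.7 to 24.7%) in replicate 2, with no overlap of the intervals within a replicate. Above 1200 kb they were 62.8% and 43.8% in replicate 1 and 48.9% and 42.4% in replicate 2, where the intervals overlap.

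**Figure D5:**
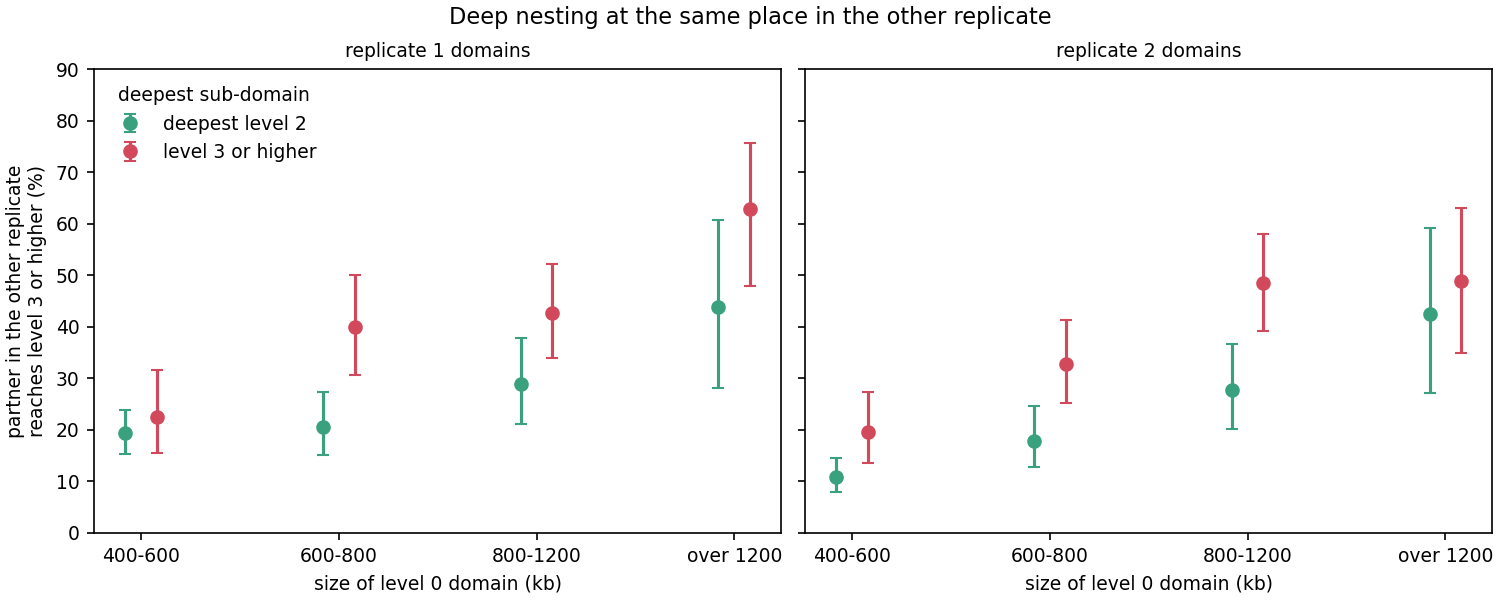
Percent of level 0 domains whose partner in the other replicate (the level 0 domain with most shared bases) contained a domain of level 3 or higher, by size of the level 0 domain in kb, for deeply nested domains (red) and domains that ended at level 2 (green). Bars are 95% Wilson intervals. The red points lie above the green ones in each size class, and the intervals are apart at 600 to 800 kb in both replicates.

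Recurrence also varied with the outer boundaries of the partner. In replicate 1, 71 deeply nested domains had a partner with both boundaries within 10 kb, and in replicate 2, 90. In this set the partner was deeply nested in 35 cases, 49.3% of those of replicate 1 (interval 38 to 60.7%) and 38.9% of those of replicate 2 (interval 29.5 to 49.2%). Domains that ended at level 2 and kept their boundaries had a deeply nested partner in 15.7% and 10.6%. Of the domains that kept their boundaries and reached level 4 or more, 12 of 14 in replicate 1 and 14 of 16 in replicate 2 had a deeply nested partner, and of those that ended at level 3, 23 of 57 and 21 of 74. These values were not split by size. A change of the outer boundaries was more frequent. For 186 of 370 domains in replicate 1 (50.3%) and 205 of 417 in replicate 2 (49.2%), the partner was a smaller domain within the same stretch, and it was deeply nested in 22.6% and 22.4% of these. The median partner was then 490 and 470 kb. For 78 and 82 domains the partner was a larger one around it, and it was deeply nested in 59% and 51.2%, with a median partner of 960 and 890 kb. Domains that ended at level 2 showed the same order, with a deeply nested partner in 8.41% and 6.57% where the partner was smaller and 32.6% and 27.5% where it was larger. Some boundaries inside the nest of 1 replicate were thus level 0 boundaries in the other. Of the boundaries first used at level 1, 25.1% in replicate 1 and 24.3% in replicate 2 lay within 10 kb of a level 0 boundary of the other replicate, against 7.71% and 6.03% of those first used at level 3 and 5.82% and 5.6% of all grid positions inside these domains.

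Boundaries of deeper layers were found again less often than those of outer layers. Of the boundaries of deeply nested domains, 71.4% at level 0, 65.6% at level 1, 51.2% at level 2 and 46.3% at level 3 had a boundary of any level within 10 kb in the other replicate, for replicate 1. For replicate 2 it was 72.3%, 60%, 49.5% and 37.7%, and of all grid positions inside these domains 16.9% and 16%. Inner boundaries at a loop anchor of their own replicate were found again in 71.7% (416 of 580, interval 67.9 to 75.2%) and 62.1% (466 of 751, interval 58.5 to 65.5%), and the remaining ones in 42.2% (interval 39 to 45.5%) and 37.6% (interval 34.5 to 40.7%). Boundaries at anchors were also more often of the outer levels, and the part of level in this difference was not tested.

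Whole domains of level 3 or higher were found again, with both boundaries within 10 kb of a domain of any level, in 25.1% of replicate 1 cases (256 of 1020, interval 22.5 to 27.8%) and 20.1% of replicate 2 cases (221 of 1101, interval 17.8 to 22.5%). This was below the 38.7% and 37.1% of domains of all levels. Inside deeply nested domains it was 34.4% and 32.8% at level 1, 27.3% and 27.6% at level 2, and 26.2% and 21.2% at level 3. The deeply nested level 0 domains themselves, which were larger, were found again in only 21.4% and 23%. At 50 to 100 kb domains of level 3 or higher gave 27.5% (interval 22.3 to 33.3%) and 19.9% (interval 15.6 to 24.9%). In other level 0 domains, level 2 domains of this size gave 37.6% (interval 34 to 41.4%) and 36.4% (interval 32.9 to 40.1%), and level 1 domains 51.3% and 45.2%. At 200 to 300 kb domains of level 3 or higher gave 25.1% (interval 19.5 to 31.7%) and 17.5% (interval 12.7 to 23.6%). Level 2 domains in other level 0 domains gave 24.8% (interval 20.4 to 29.8%) and 20.5% (interval 16.7 to 25%), with overlapping intervals. Level 3 domains with identical coordinates in both replicates numbered 82 for replicate 1 and 75 for replicate 2. Of these, 21 were at level 3 in both. Of the 82, 30 were at level 2 in the other replicate, 20 at level 1 and 7 at level 0, and of the 75, these were 25, 16 and 10, so that the same stretch was often called with fewer layers around it. Level 3 domains were few among domains of all levels, 835 of 17978 in replicate 1 and 911 of 18739 in replicate 2.

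Of the deeply nested domains, 9 had identical boundaries in both replicates. Beside the 710 kb domain of chromosome 1, these included chr6:162630001-163370000 (740 kb), in which both replicates made 9 sub-domains with a deepest level of 3. It was first cut into parts of 170, 280 and 290 kb in each replicate, and 4 sub-domains were identical. Replicate 1 divided the left and right parts and replicate 2 the middle and right parts, and both reached level 3 in the right part with a cut at 163320000. This region had 11 loops in each replicate. The loop from 163080001-163090000 to 163220001-163230000 was called in both, with 34 contacts (7.72 times the expected number) in replicate 1 and 70 contacts (7.06 times) in replicate 2. In chr4:228480001-229340000 (860 kb) the first cut at 229050000 and the next at 228640000 were the same. The level 2 domain of 410 kb between them was cut at 228950000 in replicate 1 and at 228930000 in replicate 2, and replicate 2 went on to level 4. This domain held 5 and 9 loops. In chr6:113970001-115180000 (1210 kb) replicate 1 made 11 sub-domains down to level 4 and replicate 2 made 12 down to level 3, with 3 identical ones. Among these was the 250 kb domain from 114250001 to 114500000, at level 3 in both. In chr9:87110001-87570000 (460 kb) both made 6 sub-domains, and both cut off the same 60 kb on the right. The next cut of the remaining 400 kb fell at 87240000 in replicate 1 and at 87380000 in replicate 2, on opposite sides of its middle. The cut into level 3 domains then fell at 87390000 in replicate 1 and at 87260000 in replicate 2. Both replicates thus cut the 400 kb at places within 20 kb of each other, in the reverse order of levels. Of the 9 domains, 3 had no identical sub-domain.

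The deepest nests were found in 2 domains of replicate 1, which both reached level 6 with 14 sub-domains. One of them, chr3:130490001-131590000 (1100 kb, 6 loops), had a partner of 1110 kb with boundaries within 10 kb, which ended at level 4 with 8 sub-domains. The larger one was chr4:115060001-116400000 (1340 kb). Up to level 4 each layer divided a single domain, of 1340, 1180, 1060 and 750 kb in turn, down to level 4 domains of 300 and 450 kb. Both of these were divided again, and the last cut gave level 6 domains of 160 and 170 kb. In replicate 2 the partner from 115100001 to 116390000 (1290 kb) ended at level 3 with 9 sub-domains, and set the inner boundary at 115490000 as replicate 1 did. Replicate 1 boundaries at 115180000 (level 2), 115910000 (level 5) and 116070000 (level 6) also had a replicate 2 boundary within 10 kb. These were at 115190000 (level 3), 115920000 (level 2) and 116060000 (level 3). The replicate 1 boundaries at 116240000 (level 1), 115790000 (level 4) and 115740000 (level 5) had none that near. The region held 3 loops in replicate 1, of which 2 lay in the level 6 domains, and 2 loops in replicate 2. In replicate 2 the deepest level was 5, which 12 domains of 530 to 1850 kb reached, with partners that ended between level 1 and level 4. The largest of these, chr1:135150001-137000000 (1850 kb, 13 sub-domains), ended at level 3 with 7 sub-domains in replicate 1. It held 1 loop in replicate 2 and none in replicate 1, and its level 1 and level 2 cuts were each within 10 kb of those of replicate 1.

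The domains with the most sub-domains were partners of each other, chr1:169690001-171790000 (2100 kb, 17 sub-domains) in replicate 1 and chr1:169700001-172150000 (2450 kb, 18 sub-domains) in replicate 2, both down to level 4. The nests were arranged differently. Replicate 1 first separated 110 kb on the left, and made 5 level 2 and 8 level 3 domains from the rest, whereas replicate 2 made 6 parts at level 1 and 8 at level 2. The 740 kb domain from 170530001 to 171270000 at level 2 in replicate 1 was met by one from 170540001 to 171280000 at level 1 in replicate 2. The largest domain of replicate 1, chr1:131530001-134650000 (3120 kb, 15 sub-domains), held no loop. In replicate 2 the same stretch was split between several level 0 domains, the largest of 1600 kb and itself nested to level 4, and 1 loop was called there. The largest of replicate 2, chr2:101530001-104130000 (2600 kb, 17 sub-domains), held 5 loops and had a partner of 2210 kb with 12 sub-domains down to level 4.

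The smallest members lay toward the chromosome ends. The smallest of replicate 1, chr2:232260001-232520000 (260 kb), was cut into pairs 3 times, down to level 3 domains of 50 and 70 kb. In replicate 2 it was a 250 kb level 1 part of a 570 kb domain that ended at level 2. The smallest of replicate 2, chr9:144120001-144390000 (270 kb), ended in level 3 domains of 50 and 60 kb. In replicate 1 a 300 kb domain with the same inner cuts at 144190000 and 144300000 ended at level 2. In both cases the cut into level 3 domains was absent from the other replicate. The most loops in replicate 1 were 13, in 2 domains. In chr1:233710001-234580000 (870 kb) there were 12 sub-domains, and its partner of 800 kb ended at level 2 with 11 sub-domains, with 18 loops called in the region in replicate 2. The other, chr4:22020001-23120000 (1100 kb, 8 sub-domains), had a partner of 800 kb that was deeply nested, with 6 sub-domains down to level 3. The most loops in replicate 2 were 25, again in 2 domains. The smaller, chr6:158790001-159380000 (590 kb, 8 sub-domains down to level 4), had 42.4 loops per Mb and a partner of 240 kb that ended at level 1. The larger was chr8:159800001-160890000 (1090 kb, 15 sub-domains). In replicate 1 that stretch was shared by 4 level 0 domains of 380, 130, 130 and 440 kb, of which 3 were undivided, and 17 loops were called in the region.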

How the data were processed

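Hi-C of v04 leaf tissue of B73 was analysed for 2 biological replicates of 1 group. The authors aligned the reads to B73 AGPv4 with Juicer. For the domains, runHiC matrices were passed to HiTAD at default parameters. The bin size is not given in the sources used here. HICCUPS of Juicer Tools was used for the loops, in version 1.9.9 (replicate 1) or 1.14.08 (replicate 2). In the deposited loop lists are raw counts of contacts at each loop, the signal (contacts) that HICCUPS expected from neighbouring pixels, and false discovery rates (q-values). Both kinds of list hold calls only. The total contacts behind them were not analysed here, and the replicates differ in anchor sizes. The paper also called domains from a random subset of the reads of each replicate. That gave fewer sub-domains at each level called with all reads, and more domains of the outermost layer. The paper lists more contact pairs for replicate 2 than for replicate 1. The number of levels found thus depended on sequencing depth, so depth can bear on which domains passed the rule and on their recurrence. How far it did so here was not tested.

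Domains were linked to the domain 1 level up that contained them. Loops inside a level 0 domain had both anchors within it to the base, and loops of Chr0, for which no domains were listed, were left out. A boundary of the other replicate was counted as the same within 10 kb, and an anchor at a boundary overlapped the 2 kb on either side. Position was taken from the midpoint of a domain, with the largest domain end as the length of the chromosome. Analyses used Python 3.11.15, numpy 2.4.6, pandas 2.3.3, scipy 1.17.1 and matplotlib 3.10.9. The steps were tested on 200 simulated level 0 domains of known nesting, and 8 of 8 checks gave the known answer. The domains and comparisons were chosen with earlier results of these data known. The regions named are, in each replicate, the deepest, the one with the most sub-domains, the largest, the smallest and the one with the most loops, then up to 5 with identical boundaries in both replicates, ranked by identical sub-domains, and the chromosomes with the most and fewest per 100 Mb. Alternatives were the level that defines the domains, the smallest sub-domain, the anchor size and q-value, the tolerances, the definition of a partner, the width of the chromosome ends, and leaving out each replicate.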

Additional observations from a re-analysis of the deposited data

How the results depend on the processing

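Of 41 alternative values of 11 results, 18 moved by less than the spread between the replicates and 23 by more. Leaving out a replicate and the limit of 50 kb on sub-domains are not counted, since neither could move a value further than that spread. For a deeply nested partner and for domains found again, that spread lies between both directions of a single comparison. It is thus not a measure of variation between replicates. Values are means of both replicates. With level 4 or higher as the rule there were 76 domains (1.06% of level 0 domains), with a median of 905 kb and 9.25 sub-domains, a partner of the same depth for 24.4%, and 26.3% in the outer 20% at each end. With level 2 or higher these were 1374 domains, 19.1%, 550 kb, 5 sub-domains, 61.2% and 41.2%. With 10-kb anchors alone, 84.1% held a loop and 34.3% of the boundaries used by domains of level 3 or higher were at an anchor, against 43.1% with all anchors, because fewer loops of replicate 1 entered. A partner that was deeply nested with both boundaries within 10 kb was found for 8.93%, against 35.8% for any partner. Domains of level 3 or higher were found again in 8.51% with identical boundaries, 31.7% within 20 kb and 7.37% when level 3 or higher was required in both, against 22.6%. The first and last 10% of the chromosomes held 17%. Without sub-domains under 100 kb, an alternative chosen after seeing the data, 5.03% of level 0 domains were deeply nested, with a median of 725 kb and 6 sub-domains, and 33.8% lay at the ends. The alternative without sub-domains under 50 kb changed nothing, since there were none.

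Leaving out 1 replicate leaves the value of the other, which ranged from 370 to 417 domains, 5.19 to 5.75%, 700 to 720 kb, 93.6 to 94% of sub-domains with a parent's boundary, 90 to 94.5% with a loop, 5.12 to 8.03 loops per Mb, 39.5 to 46.8% of boundaries at anchors, 33.6 to 38.1% with a deeply nested partner, 20.1 to 25.1% of domains found again and 34.6 to 36.9% at the ends, with 7 sub-domains in each. No paired analysis was possible because there was 1 group and no test. The loop values are limited by the anchor sizes, which were not the same in the replicates.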
